A study of Mus musculus with 62 samples.

Results

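The genes described here are 6 components of the TREM2 and TYROBP signalling pathway of microglia: Trem2, Tyrobp, Syk, Plcg2, Inpp5d and Cd33. They were taken by symbol from the long-RNA gene tables, which list 53975 genes, and all 6 were found. Their levels were followed in hippocampus of 17 mice and in 14 cultures of HT-22, a mouse hippocampal cell line. The set is defined by the genes' known roles in the pathway, and it was put together with earlier results of these data known.

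TREM2 is a receptor on the surface of microglia that binds lipids and lipoproteins, and it has almost no signalling tail of its own. It passes its signal through the adaptor TYROBP (also called DAP12), which recruits the kinase SYK, and SYK activates phospholipase C gamma 2, the product of Plcg2. INPP5D (SHIP1) removes the 5-phosphate from the lipid messenger made by PI3 kinase and is known as a brake on this signalling. Human CD33 is a sialic acid-binding receptor with an inhibitory tail. Whether mouse CD33 acts in the same way cannot be told from these data. In brains with amyloid plaques, microglia around plaques are known to carry more Trem2 and Tyrobp transcripts.

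Hippocampi came from mice with the APP NL-G-F allele (called APP) and from C57BL/6J mice (WT), at 3, 6 and 12 months of age. The labels call APP a transgenic model, and in this line the changes lie in the mouse's own App gene, so that App is not overexpressed from a foreign promoter. Both hippocampi of a mouse were pooled, with 3 mice per group except WT at 3 months, which had 2. HT-22 cells received an LNA against Hsf1 (150 nM) or a scramble LNA (given as 50 uM) for 24 h. They then received 30 uM of amyloid beta 1-42 or of the peptide with the reverse sequence, with 4 cultures for each peptide with the scramble LNA and 3 for each with anti-Hsf1. Levels are in TPM (a transcript's share of its library, per length) scaled between libraries by the median of ratios over genes, and error is the SD over mice.

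The 17 mouse libraries had relative depths of 1.42 to 3.04 and the HT-22 libraries 0.724 to 2.60, in units that compare libraries but give no read number. The summed level of 8 neuron markers was 1713 to 2828 in the mouse libraries. Xist, an RNA of the inactive X chromosome, was at 74.8 to 201 TPM in every APP mouse and in both WT mice aged 3 months. In the older WT mice it was at 0.215 to 0.438 TPM, and Y-linked Ddx3y was at 19.3 to 23.4 TPM there. At 6 and 12 months, genotype and sex-linked expression therefore cannot be told apart. APP at 6 months, replicate 2, stood apart from the other APP mice of its age: 8 general microglia and macrophage markers summed to 237.2 (96.8 in the lowest of that group), and 6 choroid plexus markers to 38.8 (908.5 in the highest). Results that rest on it are given with and without it.

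RefSeq promoter sequences (GRCm38.p6, 250 bases before to 50 after the transcription start) were found for 5 members, all but Tyrobp. They are shown for Trem2 and Cd33, whose levels in APP mice changed with age, and for Inpp5d, whose level did not pass that test. Capitals mark the letters GAGGAA, or TTCCTC on the other strand, the core of sites bound by PU.1, the transcription factor that specifies microglia and macrophages.
Trem2 promoter (chr17:48346151-48346450, plus strand): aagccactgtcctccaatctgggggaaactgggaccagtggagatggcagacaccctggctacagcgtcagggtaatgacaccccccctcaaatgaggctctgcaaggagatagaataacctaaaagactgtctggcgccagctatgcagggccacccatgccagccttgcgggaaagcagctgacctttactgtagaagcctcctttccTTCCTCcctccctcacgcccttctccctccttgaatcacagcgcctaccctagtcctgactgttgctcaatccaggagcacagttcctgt
Cd33 promoter (chr7:43533122-43533421, minus strand): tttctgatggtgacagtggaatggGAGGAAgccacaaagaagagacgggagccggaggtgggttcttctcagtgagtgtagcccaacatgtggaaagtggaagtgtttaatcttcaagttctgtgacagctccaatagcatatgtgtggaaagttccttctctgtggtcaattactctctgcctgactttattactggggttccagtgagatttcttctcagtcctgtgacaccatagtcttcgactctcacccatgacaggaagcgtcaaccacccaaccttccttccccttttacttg
Inpp5d promoter (chr1:87620062-87620361, plus strand): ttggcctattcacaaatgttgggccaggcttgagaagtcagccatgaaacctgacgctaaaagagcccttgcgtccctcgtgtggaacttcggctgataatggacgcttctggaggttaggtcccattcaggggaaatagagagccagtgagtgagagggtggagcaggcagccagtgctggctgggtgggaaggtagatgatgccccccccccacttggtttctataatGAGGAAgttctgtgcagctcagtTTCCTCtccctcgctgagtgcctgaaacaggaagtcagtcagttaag
Trem2 held 1 match, on the minus strand, whose leftmost base lay at -40 (counted from the start, negative before it). Cd33 held 1, at -226 on the plus strand. The Cd33 window lies inside the gene's span in the level tables (chr7:43524216-43544428), so it belongs to an internal start. For matches, plus and minus refer to the sequence as printed, while the strand given with each promoter's position is that of the genome. Inpp5d held 2, at -20 on the plus strand and at 4 on the minus strand, and the former extended to the longer site GAGGAAGT, in which the core is contained. Syk held none at its first listed start and 1 at its other start, at -9, and Plcg2 held none. Of 32851 mouse promoters of this length, 28.3% held the core and 3.20% the longer site on either strand, so the core alone is common.

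Tyrobp was the most abundant member in every mouse group, and Trem2 and Tyrobp had the widest differences between group means. Inpp5d had a higher mean than Trem2 in every group except APP at 6 and 12 months. Both were highest in APP mice at 12 months, where Trem2 was 3.40 times and Tyrobp 4.66 times the WT mean. Of the 6 members, Tyrobp passed the test between genotypes at 12 months, and Tyrobp, Trem2 and Cd33 passed the test between 12 and 3 months within APP. Under some alternatives given below, Tyrobp lost the former pass, and Trem2 and Cd33 lost the latter. Syk, Plcg2 and Inpp5d passed no test of age or genotype on this scale.

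**Figure D1:**
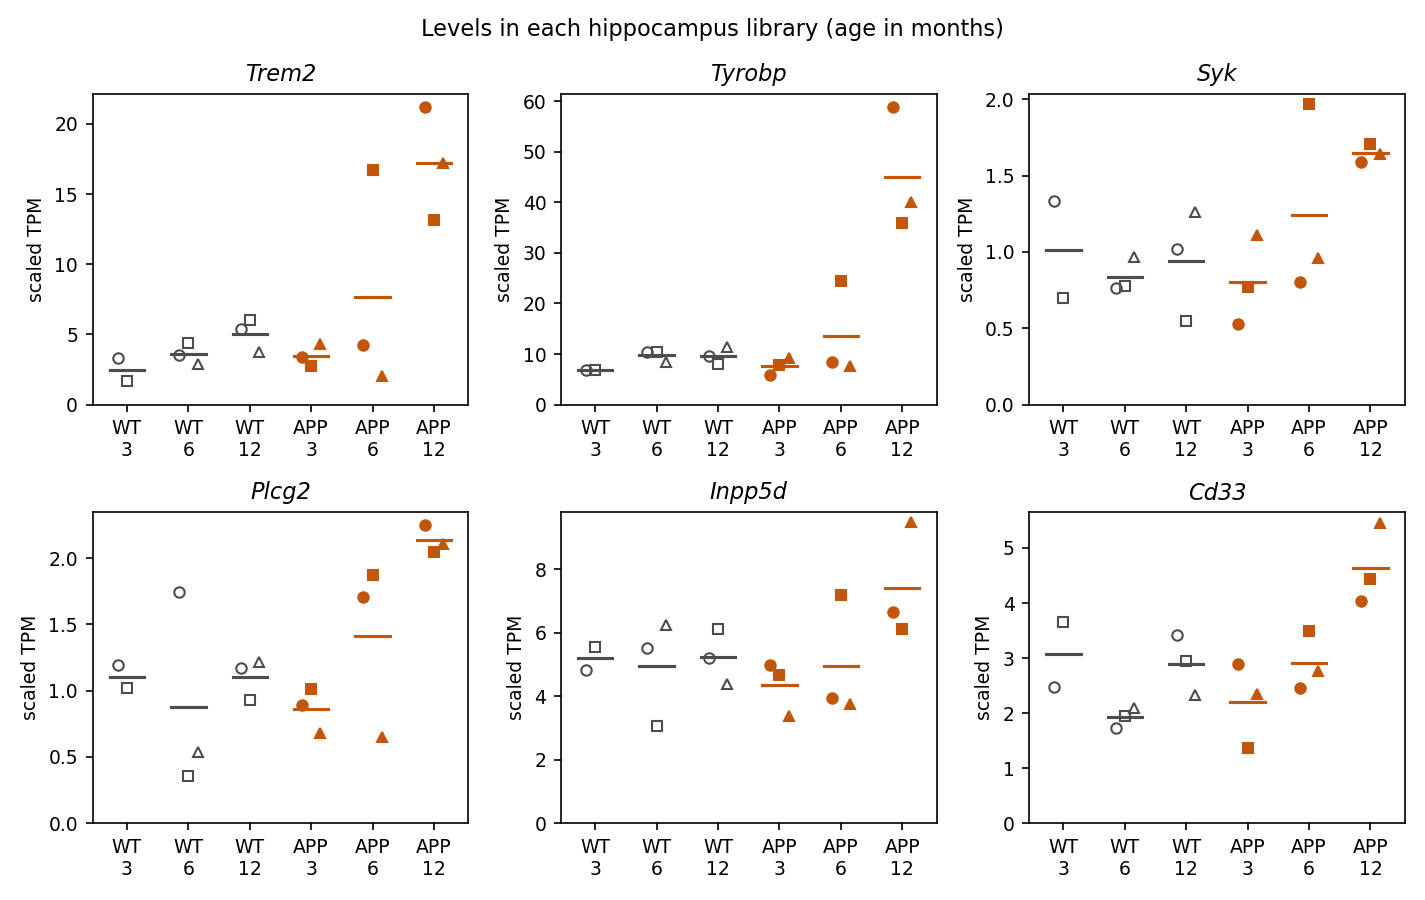
Scaled TPM (y axis) of each member in every mouse library by genotype and age in months (x axis). Open grey symbols are WT and filled orange symbols APP, circles, squares and triangles are replicates 1, 2 and 3, and bars are group means. The 3 APP libraries of 12 months lie above all WT libraries for every member except Inpp5d. Against the WT libraries of 12 months alone, 8.67% of all genes tested were higher in this way. Replicate 2 of APP at 6 months is the highest library of its group for each member.

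Trem2 (ENSMUSG00000023992, chr17:48346401-48354147, plus strand, GRCm38) encodes the receptor. In APP mice its level was 3.40, 2.73 and 4.30 at 3 months, 4.27, 16.7 and 2.01 at 6 months, and 21.2, 13.2 and 17.2 at 12 months. In WT mice it was 3.30 and 1.70 at 3 months, 3.52, 4.40 and 2.90 at 6 months, and 5.42, 6.00 and 3.74 at 12 months. The lowest APP mouse of 12 months stood above every WT mouse, and within the APP mice of 6 months 1 mouse lay in the range of the older group while the other 2 lay in the WT range. Ordered by mean, the groups ran from WT at 3 months (2.50 ± 1.13, n = 2) through APP at 3 months (3.48 ± 0.789, n = 3), WT at 6 months (3.61 ± 0.755, n = 3), WT at 12 months (5.05 ± 1.18, n = 3) and APP at 6 months (7.67 ± 7.93, n = 3) to APP at 12 months (17.2 ± 4.01, n = 3). Every neighbouring pair in this order overlapped, APP at 6 and 12 months through replicate 2 of the former.

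Tyrobp (ENSMUSG00000030579, chr7:30413760-30417585, plus strand) encodes the adaptor. Its level in APP mice was 5.80, 7.87 and 9.18 at 3 months, 8.43, 24.5 and 7.67 at 6 months, and 58.8, 35.8 and 40.1 at 12 months. In WT mice the values were 6.82 and 6.94 at 3 months, 10.4, 10.5 and 8.36 at 6 months, and 9.58, 7.97 and 11.3 at 12 months. The APP mice of 12 months formed a group of their own (44.9 ± 12.3, n = 3), above APP at 6 months (13.5 ± 9.49, n = 3) with no overlap. Below them the order of means ran from WT at 3 months (6.88 ± 0.0836, n = 2) through APP at 3 months, WT at 12 months and WT at 6 months to APP at 6 months, and each neighbouring pair overlapped.

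Tyrobp was above Trem2 in all 17 libraries, by 1.33 to 4.07 times with a median of 2.38. In the APP mice of 12 months the ratio was 2.33 to 2.78, inside the range of 1.33 to 3.04 in WT mice of the same age. Across the 17 libraries, the log2 levels of Trem2 and Tyrobp had a Pearson r of 0.924, and of 0.819 over the 14 libraries other than APP at 12 months. These are descriptions over libraries of 6 groups that share the differences in microglia markers given below.

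**Figure D2:**
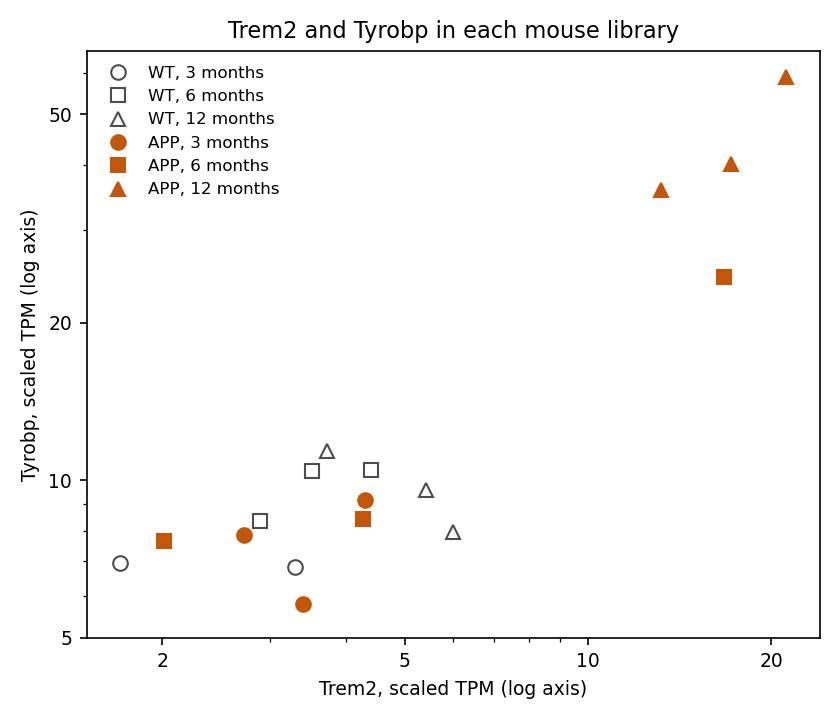
Scaled TPM of Tyrobp (y axis, log) against Trem2 (x axis, log) in the 17 mouse libraries, with symbols for genotype and age. The 3 APP libraries of 12 months and replicate 2 of APP at 6 months lie apart at the upper right, and the other 13 libraries lie between 1.70 and 6.00 for Trem2 and between 5.80 and 11.3 for Tyrobp.

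Syk (ENSMUSG00000021457, chr13:52583173-52648792, plus strand) encodes the kinase that binds phosphorylated TYROBP, and it was the least abundant member. At 12 months its level was 1.59, 1.71 and 1.64 in APP mice and 1.02, 0.546 and 1.26 in WT mice, so that the groups did not overlap. At the earlier ages it was 0.531 to 1.97 in APP and 0.698 to 1.33 in WT, and the genotypes overlapped at both.

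Plcg2 (ENSMUSG00000034330, chr8:117498291-117635142, plus strand) encodes the enzyme that cleaves a membrane lipid into second messengers. Its level at 12 months was 2.25, 2.05 and 2.10 in APP mice and 1.17, 0.928 and 1.22 in WT mice, again without overlap. In APP mice it was 0.889, 1.02 and 0.678 at 3 months and 1.71, 1.87 and 0.651 at 6 months. The 6-month WT mice were as scattered, at 1.74, 0.359 and 0.537. A microRNA gene, Gm27361, lies within Plcg2 on the opposite strand, and the sources used here do not say whether reads were counted by strand.

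Inpp5d (ENSMUSG00000026288, chr1:87620312-87720507, plus strand) encodes the lipid phosphatase. Its level at 12 months was 6.65, 6.11 and 9.49 in APP mice and 5.19, 6.12 and 4.40 in WT mice, and the groups touched, with 1 WT mouse level with the lowest APP mouse. At 3 months it was 4.99, 4.68 and 3.39 in APP and 4.81 and 5.57 in WT. At 6 months the genotype means were 4.97 ± 1.93 and 4.95 ± 1.67 (n = 3 each).

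Cd33 (ENSMUSG00000004609, chr7:43524216-43544428, minus strand) encodes the receptor CD33. Its level in APP mice was 2.90, 1.36 and 2.35 at 3 months, 2.46, 3.49 and 2.77 at 6 months, and 4.03, 4.44 and 5.45 at 12 months, without overlap between 12 months and either earlier age. In WT mice it was 2.47 and 3.66 at 3 months, 1.73, 1.95 and 2.10 at 6 months, and 3.41, 2.95 and 2.32 at 12 months. The WT mice of 12 months therefore also lay above those of 6 months.

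At 12 months, where the genotypes were compared at the labelled terminal stage of the pathology, 1 of the 6 members was called by limma (adjusted p below 0.05 over 17840 genes), against 0.443% of all genes tested. Tyrobp was higher in APP by 2.09 ± 0.316 (log2 of scaled TPM + 1, SE; adjusted p = 0.00739). Trem2 differed by 1.58 ± 0.448 with an adjusted p of 0.240. Its call depended on the spread it was set against: adjusted p was 0.0244 when only the 6 libraries of 12 months were fitted, and 0.00814 when replicate 2 of APP at 6 months was left out of the shared fit, the difference itself being the same. Plcg2 differed by 0.58 ± 0.253 (adjusted p = 0.651), Cd33 by 0.54 ± 0.199 (0.492), Syk by 0.46 ± 0.222 (0.732) and Inpp5d by 0.42 ± 0.247 (0.837). In 5 members all APP mice stood above all WT mice, which 8.67% of all genes tested did in that direction. Without replicate 1 of APP at 12 months the adjusted p of Tyrobp was 0.0578. These libraries also differ in sex-linked transcripts, whose part in the result was not tested.

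Within APP, 12 against 3 months compared libraries that were all high in Xist. Its level, in TPM as deposited, was 74.8 to 89.8 at 3 months and 102.5 to 117.9 at 12 months, without overlap. The ages also differed in oligodendrocyte markers, of which 6 of 8 were called lower at 12 months and none higher (median -0.792). Their sums were 1579 to 2628 at 3 months and 1121 to 1251 at 12 months. The part of these differences in the members' changes was not tested. Of the 6 members, 3 were called, against 3.28% of all genes, and in all 6 every mouse of 12 months stood above every mouse of 3 months, against 11.3% of all genes. Tyrobp rose by 2.40 ± 0.316 (adjusted p = 0.00172), Trem2 by 2.01 ± 0.448 (0.0251) and Cd33 by 0.84 ± 0.199 (0.0331). Plcg2 differed by 0.76 ± 0.253 (0.132), Inpp5d by 0.64 ± 0.247 (0.193) and Syk by 0.56 ± 0.222 (0.205). Tyrobp kept its call when any 1 library of either age was left out, with an adjusted p of 0.0118 at most. The calls of the other 2 were less firm: Trem2 reached 0.101 and Cd33 0.0710 without replicate 1 of APP at 12 months, and Cd33 0.147 without replicate 3. Trem2 was also above the threshold without replicate 2 (0.0562) or 3 (0.0921) of 12 months and without replicate 1 (0.0619) or 2 (0.0735) of 3 months, and Cd33 without replicate 2 of 12 months (0.0902) or of 3 months (0.105).

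Between 6 and 12 months in APP, 1 member was called, against 0.538% of all genes, and in 3 members (Tyrobp, Plcg2 and Cd33) the ages did not overlap, against 10.7% of all genes. Tyrobp rose by 1.81 ± 0.316 (adjusted p = 0.0215). Trem2 differed by 1.45 ± 0.448 (0.214). Without replicate 2 of APP at 6 months these were 2.31 (6.53e-05) for Tyrobp and 2.17 (0.00173) for Trem2. The call of Tyrobp was lost without any other library of these groups: adjusted p was 0.0726 and 0.126 without replicates 1 and 3 of 6 months, and 0.136, 0.0513 and 0.0617 without replicates 1, 2 and 3 of 12 months. From 3 to 6 months no member was called by limma, against 2.36% of all genes, and none had an unadjusted p below 0.05, against 3324 of the 17840 genes. These 3 comparisons share libraries with each other and with the comparison of genotypes at 12 months.

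At 3 months, before plaques in this model per the series' description, no member was called between genotypes, against 0.303% of all genes. None had an unadjusted p below 0.05, against 2385 of the 17840 genes. Trem2 differed by 0.38 ± 0.501 and Tyrobp by 0.11 ± 0.354, while the other 4 differed by -0.15 to -0.36. Plcg2 was lower in every APP mouse than in both WT mice, as were 13.4% of all genes.

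At 6 months, too, no member was called, against 1.66% of all genes, and none had an unadjusted p below 0.05, against 3029 of the 17840 genes. The differences were 0.52 ± 0.448 for Trem2, 0.26 ± 0.316 for Tyrobp, 0.25 ± 0.222 for Syk, 0.39 ± 0.253 for Plcg2, 0.00 for Inpp5d and 0.41 ± 0.199 for Cd33. Cd33 was higher in every APP mouse than in any WT mouse, as were 11.1% of all genes. On the authors' read coverage in place of TPM, described below, this separation was lost. Cd33 was then 1.14, 2.18 and 1.60 in APP mice and 1.28, 1.45 and 1.39 in WT mice, with a log2 change of 0.134. Without replicate 2 of APP at 6 months, Trem2 differed by -0.20 and Tyrobp by -0.24. This is also the age at which scaling mattered most: on TPM as deposited, 10267 genes were called higher and 72 lower (75 and 222 after scaling), all 6 members were among the former, and the median of all genes tested was shifted by 0.60.

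In WT mice between 6 and 12 months limma called no member, against 0% of all genes, and 1218 of the 17840 genes had an unadjusted p below 0.05 (no member among them). Tyrobp differed by -0.02 ± 0.316 and Trem2 by 0.39 ± 0.448. Cd33 differed by 0.40 ± 0.199, and its ages did not overlap, as in 6.05% of all genes. The change from 6 to 12 months was larger in APP than in WT by 1.83 ± 0.447 for Tyrobp (adjusted p = 0.184) and by 1.06 ± 0.633 for Trem2 (0.595), and no member was called, against 0.0224% of all genes. At an unadjusted p below 0.05 there was 1 member, Tyrobp, against 1816 of the 17840 genes. Without replicate 2 of APP at 6 months the adjusted p of Tyrobp was 0.00243.

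**Figure D3:**
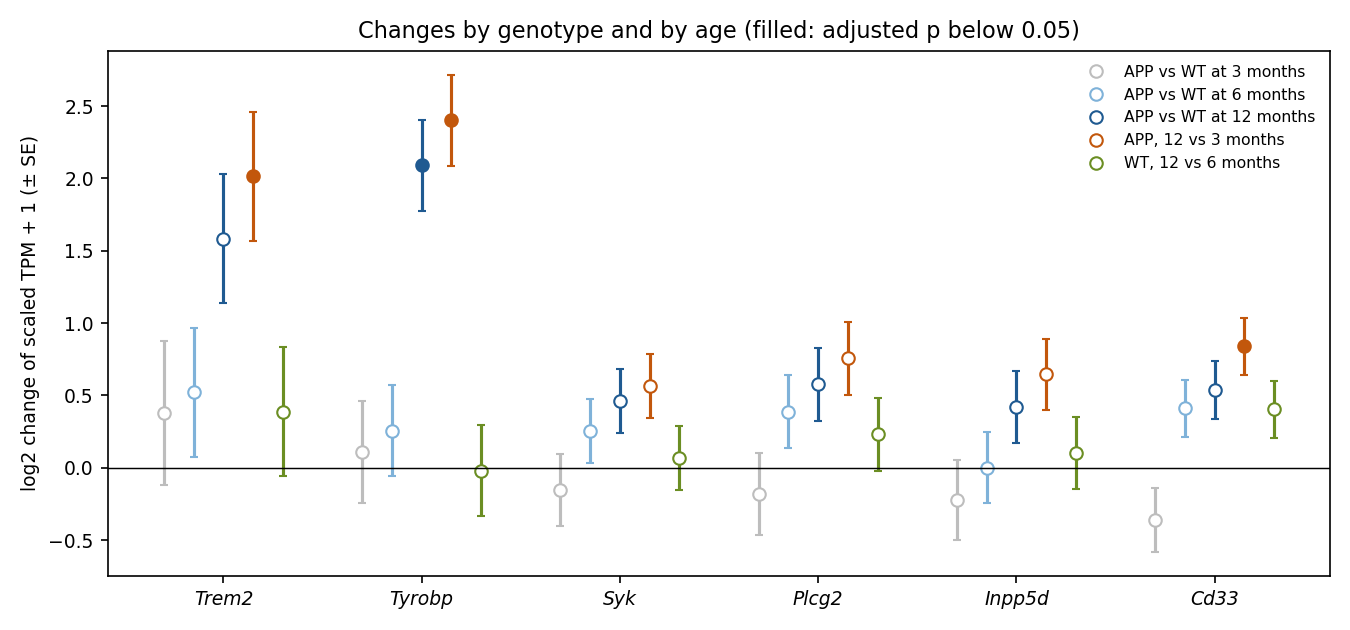
Log2 change of scaled TPM + 1 with its standard error (y axis) for the 6 members (x axis) in 5 comparisons, filled where the adjusted p was below 0.05. Tyrobp is filled in APP against WT at 12 months, and Tyrobp, Trem2 and Cd33 in APP at 12 against 3 months, while the comparisons at 3 and 6 months and of WT by age hold no filled symbol.

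Microglia markers moved with these results. The level of 8 markers of homeostatic microglia, among them Gpr34, summed to 211.0 to 219.6 in APP mice of 12 months, 114.3 to 141.0 in WT mice of 12 months and 102.8 to 114.7 in APP mice of 3 months. The 8 general microglia and macrophage markers summed to 371.8 to 528.4, 134.4 to 151.6 and 97.6 to 118.6 in the same groups. A sum weighs the most abundant markers most, and the homeostatic markers did not rise evenly. Between genotypes at 12 months 2 of the 8 homeostatic markers were called higher, with a median change of 0.285. Their mean log2 level, which weighs them alike, was 4.12 in APP and 3.69 in WT mice of that age. Markers of infiltrating cells stayed low: 7 monocyte and neutrophil markers summed to at most 1.67 and 8 lymphocyte markers to at most 0.434 in any mouse library. In bulk RNA, more cells of a type and more RNA per cell cannot be told apart.

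On log2 of scaled TPM + 1, the members divided when set against the mean level of the 8 homeostatic markers. Tyrobp stood at -0.36 ± 0.263 in APP mice of 3 months and at 1.37 ± 0.377 in those of 12 months, with -0.29 ± 0.268 in WT mice of 12 months (log2 differences, n = 3 each). Trem2 stood at -1.30 ± 0.220, 0.04 ± 0.352 and -1.11 ± 0.285 in these groups. Both were thus higher relative to these markers in every APP mouse of 12 months than in any mouse of the other 2 groups. Syk stood at -2.61, -2.72 and -2.75, Plcg2 at -2.56, -2.47 and -2.62, Inpp5d at -1.04, -1.07 and -1.06 and Cd33 at -1.80, -1.63 and -1.74, and these groups overlapped for each. Among the remaining groups, Cd33 was lower in WT mice of 6 months (-2.26 to -1.99) than in WT mice of 3 months (-1.56 to -1.24) or 12 months (-1.87 to -1.63), without overlap. On read coverage, described below, Cd33 itself was 0.936 and 1.70 in WT mice of 3 months. In those of 6 months it was 1.28 to 1.45, so these ages overlapped. No test was run on the differences from the homeostatic markers. The share of all genes that separate in this way was not counted, and no other reference was used. The 8 general microglia and macrophage markers rose by a median of 1.53 between genotypes at 12 months. In APP from 3 to 12 months they rose by 1.92. Trem2 changed by 1.58 and 2.01 in these comparisons and Tyrobp by 2.09 and 2.40. The other 4 members changed by 0.42 to 0.58 and by 0.56 to 0.84. The 1 added before the log understates changes of low members such as Syk and Plcg2. As ratios of mean scaled TPM, APP at 12 over 3 months was 5.90 for Tyrobp and 4.94 for Trem2. It was 2.48 for Plcg2, 2.11 for Cd33, 2.04 for Syk and 1.70 for Inpp5d. With 0.1 added instead, the change in APP from 3 to 12 months was 2.535 for Tyrobp and 2.27 for Trem2. It was 1.233 for Plcg2, 1.093 for Cd33, 0.997 for Syk and 0.748 for Inpp5d, each larger than with the added 1. The summed homeostatic markers averaged 109.5 in APP mice of 3 months and 214.5 in those of 12 months. Their mean log2 level was not recomputed with 0.1, so the division without the added 1 was not tested.

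**Figure D4:**
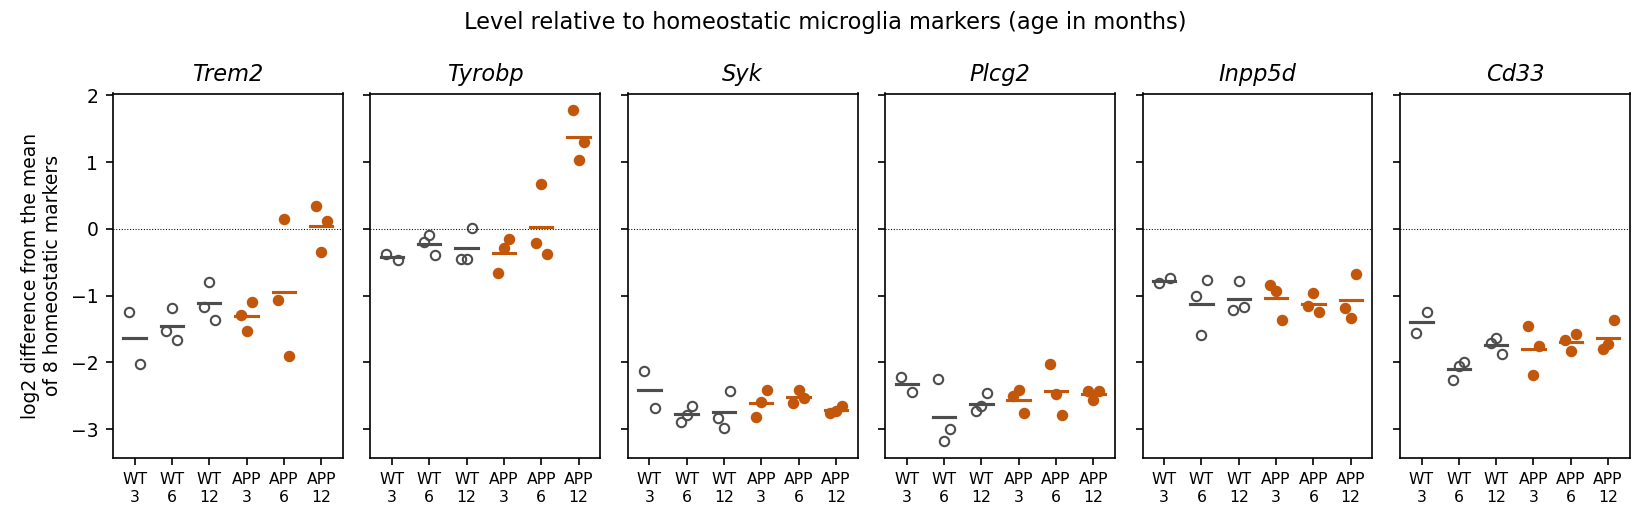
Log2 of scaled TPM + 1 of each member minus the mean of that value over 8 homeostatic microglia markers (y axis). Every mouse library is shown by genotype and age in months (x axis), with group means as bars. Trem2 and Tyrobp have their highest group means in APP at 12 months, where Tyrobp lies between 1.03 and 1.78, while for each of the other 4 members the libraries of APP at 12 months overlap those of WT at 12 months and of APP at 3 months.

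Genes around the members in the pathway were counted in lists chosen by known function, at 12 months between genotypes. The median change of all genes tested was -0.005. Of 7 genes for TREM2 ligands, related cytokines and sheddases, 1 was called higher, Csf1, a growth factor of microglia (0.93, adjusted p = 0.0425), and none lower, with a median of 0.429. Of 9 receptors listed as signalling with TYROBP, 4 reached the level tested, and 1 was called, Csf1r, the receptor of CSF1 (0.93, adjusted p = 0.0145; median 1.02).

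Of 24 kinases and adaptors downstream, 19 were tested and 1 was called, Lcp2, which encodes the adaptor SLP-76 (0.97, adjusted p = 0.0492; median 0.213). Of 15 inhibitory receptors and phosphatases, 7 were tested and 1 was called, Ptprc, which encodes the phosphatase CD45 (1.61, adjusted p = 0.00934; median 0.400). None of the 6 other phospholipase C genes tested was called in either direction, and their median was -0.0175. Of 5 transcription factors of myeloid cells 4 were tested and Irf8, which acts with PU.1, was called (1.37, adjusted p = 0.0282; median 0.881).

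Plaque-associated microglia are known to raise a set of genes in part through TREM2. Of 8 that are known to need TREM2, 6 were called higher and none lower, with a median of 2.45. Cst7, an inhibitor of cathepsins, was at 31.4 ± 5.43 in APP and 0.215 ± 0.202 in WT (log2 change 4.74, adjusted p = 0.00146). Clec7a, a receptor for glucans, was at 12.8 ± 3.69 and 0.298 ± 0.201 (3.39, 0.0145), and Itgax (CD11c) and Ccl6 differed by 2.96 and 2.80. Of 6 that are known to rise without TREM2, 3 were called (Lyz2, Ctsd and Ctsb), with a median of 0.794.

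Of the 8 general microglia and macrophage markers 7 were called higher, Cd68, C1qa, Ctss and C1qc among them, with a median of 1.53. Of the 8 homeostatic markers 2 were called higher, Gpr34 (0.97) among them, with a median of 0.285. No neuron (8), oligodendrocyte (8), endothelial (7), choroid plexus (6) or blood (5) marker was called, and of 7 astrocyte markers 1 was, Gfap (2.04, adjusted p = 0.00687). Their medians were -0.0985 for neuron, 0.131 for oligodendrocyte, 0.301 for endothelial, 0.917 for choroid plexus, -0.123 for blood and 0.143 for astrocyte markers. All 6 choroid plexus markers were above 0, and their sums were 1437 to 1659 in APP mice and 424.0 to 1309 in WT mice of 12 months, without overlap. The part of this difference between the groups in the members' values was not tested. None of these lists held a gene called lower.

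**Figure D5:**
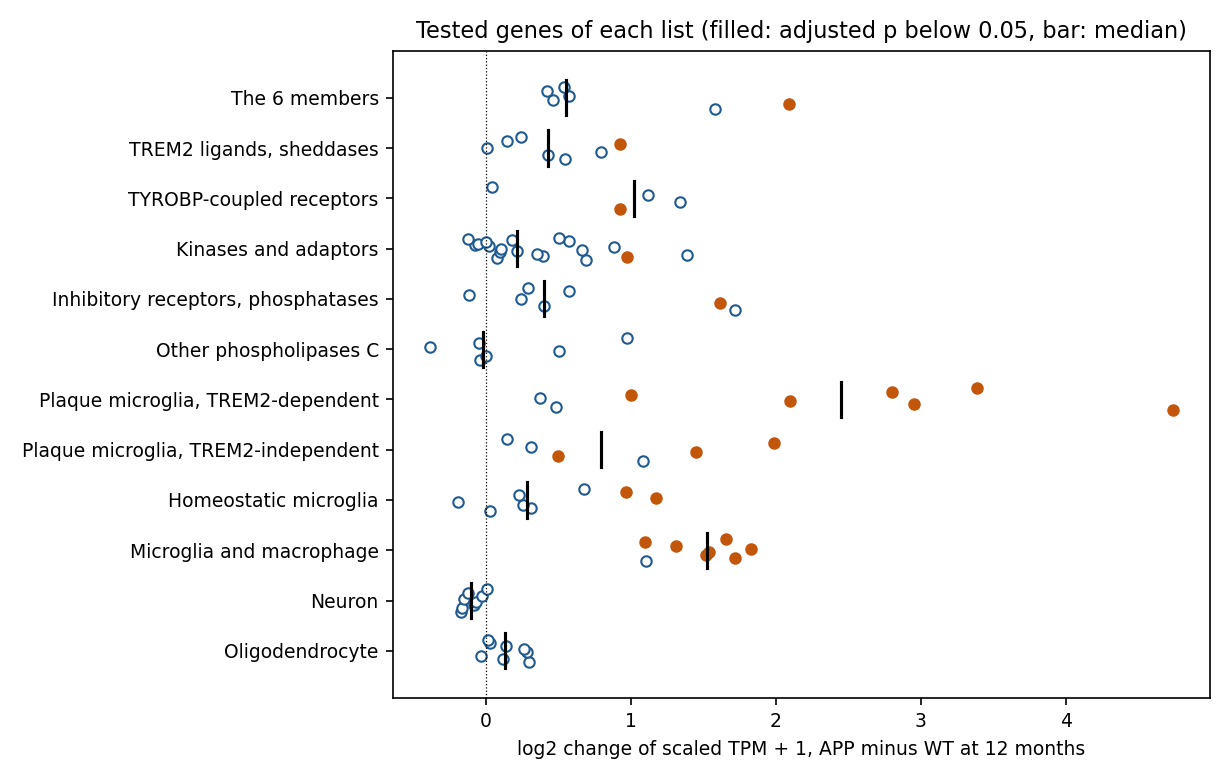
Log2 change of scaled TPM + 1 in APP minus WT at 12 months (x axis) for each tested gene of 12 lists (rows), filled where the adjusted p was below 0.05, with a bar at the list's median. The 6 members span 0.42 to 2.09, and the genes of TREM2-dependent plaque microglia reach 4.74.

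The tested genes most like each member over the 17 libraries, by Pearson r of log2 levels, were ranked. For Trem2 they included Tent5c (0.936), Plek, Mpeg1 and C1qc, with Tyrobp ninth. For Tyrobp they were Ctss (0.985), Gfap, Mpeg1, Ctsz and Ccl6. For Syk they were Hk2 (0.850), Hcls1, Steap3, Gfap and Gpr183, for Plcg2 Zfp36 (0.856), Gsdmd, Pald1, Psmb8 and Rasal3, for Inpp5d Dock2 (0.782), S100a6, Akap11, Olfml3 and Cmklr1, and for Cd33 Slco2b1 (0.858), Mamdc2, Trim30a, Lag3 and Baiap2l2. Without the APP libraries of 12 months the values of the genes given with an r were 0.846 for Trem2, 0.921 for Tyrobp, 0.761 for Syk, 0.797 for Plcg2, 0.708 for Inpp5d and 0.689 for Cd33. Library depth and the level of microglia markers are shared by all these points.

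A gene's TPM depends on how reads were divided among its transcripts, and the members differ in this. GENCODE M21 lists 11 transcripts of 344 to 4937 bases for Inpp5d, 4 of 526 to 4784 bases for Trem2, and 1 for Plcg2. The authors' read coverage, put on a scale on which a gene with 1 transcript has its TPM value, was 0.0486 to 0.0987 of the TPM for Inpp5d, 0.246 to 0.682 for Trem2 and 0.835 to 0.856 for Tyrobp. For Cd33 it was 0.339 to 0.746 of the TPM. On coverage, Inpp5d was 0.656, 0.537 and 0.575 in APP mice of 12 months and 0.356, 0.297 and 0.345 in WT mice of that age, without overlap. The ratio of APP to WT at 12 months was then 1.77 for Inpp5d (1.42 on TPM), 4.10 for Trem2 (3.40), 4.64 for Tyrobp (4.66) and 1.37 for Cd33 (1.60). Trem2 at 12 months had an adjusted p of 0.0288 on coverage with a pseudocount of 1, and of 0.0692, which is no call, with 0.1. Inpp5d between 12 and 3 months in APP had 0.0451 and 0.0469, and was called with both.

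HT-22 cultures held almost no transcripts of these genes. Tyrobp, Syk and Plcg2 were listed at 0 in all 14 libraries, Trem2 was above 0 in 1 (0.123 TPM), and Inpp5d in 4 (at most 0.251 TPM). Cd33 was above 0 in 13, with a mean of 0.276 TPM and at most 0.459. By peptide and LNA, scaled Cd33 was 0.290, 0.225, 0.211 and 0.229 with amyloid beta and scramble, 0.316, 0.537 and 0 with amyloid beta and anti-Hsf1, 0.313, 0.298, 0.211 and 0.226 with the reverse peptide and scramble, and 0.377, 0.331 and 0.203 with the reverse peptide and anti-Hsf1. The 4 groups overlapped.

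No member reached the mean of 1 TPM required for a test in HT-22, and Tyrobp, Syk and Plcg2, at 0 throughout, could not be tested at all. Without that requirement the other 3 were tested and none was called by limma in any of the 4 comparisons (smallest adjusted p 0.939, none with an unadjusted p below 0.05), against 0% to 0.00721% of 27744 genes. Of these genes, 1057 to 1948 had an unadjusted p below 0.05, depending on the comparison. The 8 general microglia and macrophage markers summed to 2.20 to 7.22 TPM in these cells. The 8 neuron markers summed to 0.0826 to 1.42 TPM, with 5 of 8 at 0 in every library, so the labelled neuronal line also lacked these defining neuron transcripts. Hsf1, the target of the LNA, is given in TPM as deposited, without scaling. It was at 27.7 to 44.0 with amyloid beta and anti-Hsf1 and at 60.3 to 80.0 with amyloid beta and scramble. With the reverse peptide it was at 45.7 to 59.9 and 42.9 to 70.6, where the LNA groups overlapped. The median-of-ratios factors were 0.639, 0.855 and 0.659 with amyloid beta and anti-Hsf1 and 1.12 to 1.23 with amyloid beta and scramble. Dividing by them narrows the first difference, whose scaled size is not given here.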

How the data were processed

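Long RNA was sequenced from 17 hippocampus and 14 HT-22 samples after ribosomal RNA depletion, per the labels' protocols, and the 31 short-RNA libraries of the series were not used. The authors deposited 1 gene table per library, with coverage (mean read depth), FPKM and TPM for each gene, per the file headers. The submitters' processing notes name FastQC, cutadapt 1.18, BWA 0.7.17, HISAT2 2.1.0, bedtools 2.26.0 and StringTie 1.3.4d, and the builds mm10 and GRCm38, without the role of each. The sources used here do not say whether counting used strand. The deposited TPM sums to nearly the same total in each library and FPKM is a multiple of it, so read numbers are not known and no count model was used.

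TPM was summed per gene identifier and divided by median-of-ratios factors over 17141 genes (0.688 to 1.46 in mouse). Genes whose TPM averaged at least 1 (17840 in mouse, 17291 in HT-22) were tested on log2(scaled TPM + 1) with limma 3.58.1 in R 4.3.3, using trend and robust moderation, 1 fit per system and no replicate block. This scale understates changes of low genes. P-values were adjusted by Benjamini-Hochberg over all genes tested and a gene was called below 0.05. The code was tested on simulated data. Relative depth is the most frequent ratio of coverage to FPKM in a library. No pair of libraries held identical values. Each sample is a separate mouse per the series' text; for HT-22 the samples are called biological replicates.

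The members and gene lists were chosen with earlier results of these data known. Besides the 6 members, at most 4 genes per list are named, those called with the largest change between genotypes at 12 months, and the 5 genes most like each member. A gene that these rules name is not reported here. Alternatives were TPM as deposited, quantile normalisation, a pseudocount of 0.1, no filter, a replicate block, only the groups compared and leaving out each library. Coverage in place of TPM (with pseudocounts of 1 and 0.1) and the shared fit without replicate 2 of APP at 6 months were added after seeing the data.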

Additional observations from a re-analysis of the deposited data

Results flagged for a closer look

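Among the 5 HT-22 groups of 4 cultures in which a member varied, 2 held 1 culture far from the other 3. Trem2 was at a scaled TPM of 0.108 in 1 culture with the reverse peptide and the scramble LNA and at 0 in the other 3. Inpp5d was at 0.0990 in 1 culture with amyloid beta and the scramble LNA and at 0 in the other 3. The rate of about 1 group in 20 that chance would mark does not hold for values of this kind, since any group with 1 value above 0 and 3 at 0 is marked. Both values lie far below the level required for a test.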

How the results depend on the processing

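Of the members' log2 changes under all alternatives together, 666 kept their direction and their side of the threshold, 13 newly passed it, 22 no longer did and 25 changed sign. The cause was not tested for any of them. On TPM as deposited, whose median over all genes moved by -0.49 to 0.60, genes called were 10339 for APP against WT at 6 months, 1270 for APP at 6 against 3 months, 286 at 12 against 3, 26 at 12 against 6 and 0 for the difference between genotypes in the change from 6 to 12 months, and 6 members were called at 6 months. Genes called higher and lower were then 8 and 63 at 3 months (22 and 32 after scaling), 1207 and 63 for APP at 6 against 3 months (227 and 194), 205 and 81 at 12 against 3 (342 and 243), and 21 and 5 at 12 against 6 (92 and 4). Signs reversed there for Tyrobp at 3 months (-0.0618) and in WT by age (0.21), and for Syk (-0.0735), Plcg2 (-0.0809), Inpp5d (-0.0369) and Cd33 (-0.25) in the difference of changes. Without the filter on low values, genes called were 34 at 3 months, 115 at 6 months, 181 for APP at 6 against 3 months and 2 for WT by age, and 1 member was called for APP at 12 against 3 months. With only the groups compared they were 4 at 3 months, 37 at 6 months, 2 for APP at 6 against 3 months, 132 at 12 against 3, 1 at 12 against 6 and 1 for WT by age, with 2 members called at 12 months and 0 in APP at 12 against 6 months. Quantile normalisation gave 62 and a pseudocount of 0.1 gave 42 genes called for APP at 12 against 6 months. On coverage 120 genes and 2 members were called at 12 months, and Trem2 at 3 months was -0.0851 (-0.15 with a pseudocount of 0.1) and Syk in WT by age -0.00914 with that pseudocount. Without replicate 2 of APP at 6 months in the shared fit, 22 genes were called at 3 months and 2 members at 12 months.

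With a replicate block, 8 genes were called for the difference of changes, and Cd33 in APP at 12 against 3 months had an adjusted p of 0.0562, the only call of a member that the block changed. Libraries of the same number did not deviate together: over 40 pairs in mouse the correlation was -0.146 to 0.228 with 3 above 0.1, so the numbers were not taken as pairs.

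Leaving out each library in turn gave 7 to 380 genes called at 3 months, 66 to 285 at 6 months, 17 to 46 at 12 months, 40 to 585 for APP at 6 against 3 months, 159 to 757 at 12 against 3, 1 to 129 at 12 against 6, 0 to 4 for WT by age and 0 to 44 for the difference of changes. Members called ranged over 0 to 1 at 12 months, 1 to 3 for APP at 12 against 3 months, 0 to 2 at 12 against 6 and 0 to 1 for the difference of changes. Changes of sign gave ranges of -0.02 to 0.27 for Tyrobp and -0.383 to 0.0764 for Syk at 3 months; -0.20 to 1.08 for Trem2, -0.24 to 0.54 for Tyrobp and -0.25 to 0.16 for Inpp5d at 6 months; -0.15 to 1.12 for Trem2 and -0.13 to 0.26 for Inpp5d in APP at 6 against 3 months; -0.13 to 0.10 for Tyrobp, -0.0525 to 0.222 for Syk and -0.15 to 0.27 for Inpp5d in WT by age; and -0.12 to 0.39 for Plcg2 in the difference of changes. Where WT at 3 months is left with 1 mouse, that mouse is assumed to vary like the other groups. Depth is not known in reads, so no counting error could be given, and Syk and Plcg2, with means near 1 TPM, lie close to the level required for a test.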
